A study of Mus musculus with 9 samples.

Results

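The genes described here are 40 genes of the interferon response and of antigen presentation by MHC class I, out of 49672 rows in a table of gene-level transcript abundance. They were taken by symbol from the Ensembl identifiers of that table, and each of the 40 matched 1 row. The cells were flow-sorted from skin epidermis taken at P0 (the day of birth) from mice that carry a Sox2-GFP reporter. GFP-positive cells are labelled Merkel cells (3 libraries). GFP-negative cells that carried SCA1 and CD49F on their surface are labelled basal keratinocytes (6 libraries). All cells came from the reporter strain, and no agent was given, as far as the labels say. Each of the sample numbers 1 to 3 has 1 Merkel library and 2 basal libraries, titled GFPneg1 and GFPneg2 and here named first and second basal. The sources used here do not give how GFPneg1 and GFPneg2 differ. They do not tell either whether a number stands for 1 mouse, 1 litter or pooled mice, so p-values measure only the spread between these samples, which may be technical.

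Interferons are secreted proteins that alert cells to infection. Type I interferons bind a receptor made of the Ifnar1 and Ifnar2 chains and interferon gamma a receptor made of Ifngr1 and Ifngr2. The receptors activate STAT proteins, which with IRF transcription factors switch on a large set of interferon-stimulated genes. Some of their products block viruses, and others raise the display of peptides on MHC class I. That display needs the heavy chains H2-K1 and H2-D1, the light chain B2m, the peptide pump Tap1 and Tap2, and an immunoproteasome in which Psmb8, Psmb9 and Psmb10 replace the standard catalytic subunits. The epidermis also holds leukocytes, among them Langerhans cells, its antigen-presenting cells, and many of these genes are strongly expressed in leukocytes.

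Levels are TPM (the share of a library's transcripts, corrected for transcript length), as the authors deposited them. Tests used limma on log2(TPM + 1), two-sided, with Benjamini-Hochberg adjustment over 14386 genes that reached 1 TPM in at least 3 of the 9 libraries. A gene is called, and said to be higher or lower, when its adjusted p is under 0.05 with a log2 fold change of at least 1 in size. Merkel cells were compared with basal keratinocytes after the basal libraries of a sample number were averaged, and then with the first and with the second basal libraries on their own. The first was also compared with the second. These 4 comparisons share libraries. The 9 libraries held between 13012 and 13649 genes at 1 TPM or more. Their labels fit the defining markers: the 8 Merkel cell markers (Sox2, Atoh1, Pou4f3, Isl1, Krt8, Krt18, Krt20 and Insm1) summed to 859 to 1140 TPM in Merkel libraries and to 1.95 to 4.61 TPM in basal libraries. The 7 basal markers, such as Krt5 and Krt14, summed to 12800 to 17400 TPM in basal libraries and were still at 4550 to 5100 TPM in Merkel libraries.

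The first basal libraries stood apart in leukocyte transcripts. The 8 leukocyte markers (among them Ptprc, which encodes CD45) summed to 1000, 526 and 737 TPM in the first basal libraries of sample numbers 1, 2 and 3. They summed to 55.9, 91.0 and 36.6 TPM in the second basal libraries and to 71.6, 64.0 and 107 TPM in the Merkel libraries. All 8 were called lower in second than in first basal libraries, and none of them was at 0 in all libraries. Of the 8 Langerhans cell and macrophage markers 6 were called lower there too, with sums of 681 to 1070 TPM in the first, 104 to 302 TPM in the second and 166 to 244 TPM in the Merkel libraries. Of that list Epcam is also made by Merkel cells and keratinocytes. Cd74 is counted both in that list and among the MHC class II genes. In first basal libraries 1, 2 and 3 Cd74 alone was at 310, 885 and 683 TPM. MHC class II genes, the markers of antigen-presenting cells, were highest in sample number 2 in every group, at 301 TPM in the Merkel, 2060 TPM in the first and 515 TPM in the second basal library. Melanocyte markers went the other way, with 7 of 7 called higher in second than in first basal libraries (sums of 109 to 158 against 16.3 to 35.4 TPM, with 153 to 217 TPM in Merkel libraries). Fibroblast markers summed to 175 to 269 TPM in Merkel, 36.1 to 103 TPM in first and 102 to 253 TPM in second basal libraries. T cell and endothelial lists summed to less, at most 16.1 and 9.24 TPM, and the T cell gene Cd8a did not pass 0.04 TPM. How much of any result below comes from these other cells was not tested, and in bulk libraries fewer cells of a type cannot be told apart from less RNA per cell.

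**Figure D1:**
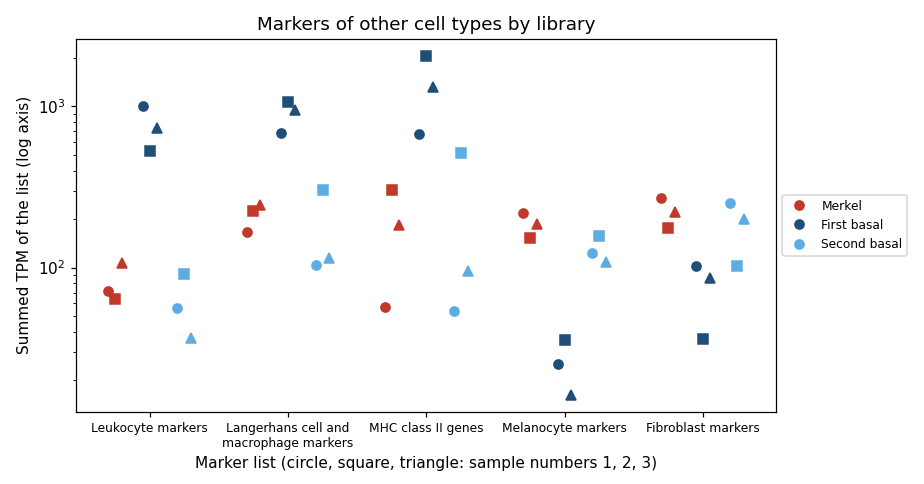
Summed TPM (log axis) of marker lists in each of the 9 libraries, coloured by group, with the sample number given by the symbol. Leukocyte markers reached 526 to 1000 TPM in the 3 first basal libraries and at most 107 TPM in the other 6. Cd74 is counted both among the Langerhans cell and macrophage markers and among the MHC class II genes.

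Of the 40 genes 35 were tested. Irf4, Ifit1, Rsad2, Mx2 and Nlrc5 were below the level for testing. Of the tested genes 8 (Irf8, Ifit2, Ifit3, Oasl2, Oas1a, Mx1, Usp18 and Gbp2) reached 1 TPM in all 3 libraries of a group only in the first basal group, and Ifitm1 only in Merkel cells, so for these 9 genes passing the filter already leans towards a difference. Against all basal libraries 8 of the 35 were called lower in Merkel cells, 22.9%, where 5.16% of all tested genes were, and 1 was called higher, where 6.53% of all tested genes were. The 8 were Irf1, Ifngr1, Isg15, Xaf1, Bst2, Oas1a, Ifitm3 and Mx1, and the 1 was Ifitm1. With the adjusted p alone 25 were lower (29.2% over all tested genes), and in 12 every Merkel library was below every basal one (26.3% over all tested genes). Without Merkel replicate 3 the 8 became 14, and with median-ratio scaling 5. That scaling moved the median over all tested genes (log2 fold change) from -0.16 to 0.01 in this comparison, and the share of higher among all called genes from 55.8% to 70.3% (from 55.1% to 73.1% against the second basal libraries). Against the first basal libraries 20 of 35 were lower (57.1%, over all tested genes 7.06%) and 1 higher (over all tested genes 7.16%). In 29 of 35 every Merkel library was below every first basal library (over all tested genes 34.3%), and 30 were lower by the adjusted p alone (28.2%). Against the second basal libraries 2 of 35 were lower (5.71%, over all tested genes 5%) and 1 higher (6.13%). In 13 of 35 every Merkel library was below (over all tested genes 37%), and 7 were lower by the adjusted p alone (29.1%). The 2 called lower against the second set were Irf1 and Ifitm3, and both were also lower against the first, as 2.56% of all tested genes were. Ifitm1 was the 1 called higher against both, as 5.47% of all tested genes were. The count of 2 became 1 without Merkel replicate 1, Merkel replicate 2 or second basal replicate 3, and 3 without second basal replicate 1, where Isg15 joined at a log2 fold change of -1.22.

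The basal sets differed from each other in many of these genes. Of the 35 tested genes 14 were called lower in second than in first basal libraries (40%, over all tested genes 3.64%) and limma called 0 higher (0.695% over all tested genes), with 0 of the 35 higher at an unadjusted p under 0.05. Every first basal library lay above every second basal library in 23 of the 35, where 9.87% of all tested genes did so. By the adjusted p alone 16 were lower (5% over all tested genes). Their median log2 fold change was -0.88, and that of all tested genes 0.06. Among the 20 tested members with a mean of 5 TPM or more over the 9 libraries, 7 were lower in the second libraries (35%, against 2.13% of the 9692 tested genes at that mean), 9 were lower in Merkel cells against the first libraries (45%, against 5.62%), 2 against the second (10%, against 5.12%) and 4 against all basal libraries (20%, against 4.98%).

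**Figure D2:**
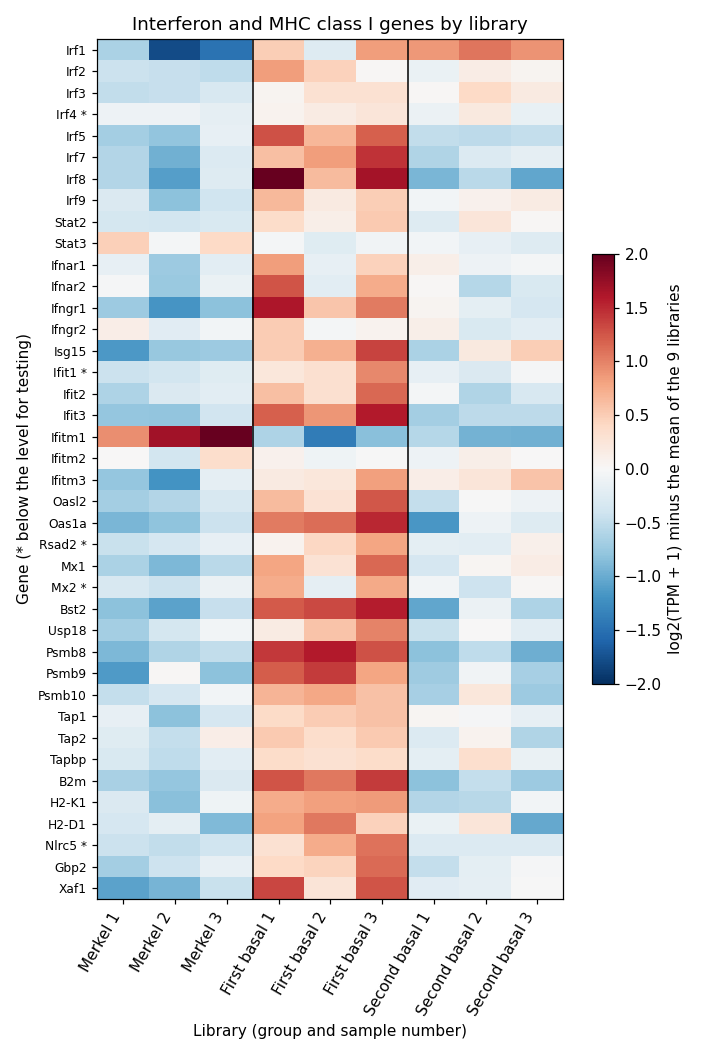
Each row is 1 of the 40 genes and each column 1 library; colour gives log2(TPM + 1) minus the gene's mean over the 9 libraries, and an asterisk marks the 5 genes below the level for testing. Most genes are above their mean in the 3 first basal libraries and below it in the others, while Irf1 is above its mean in 5 of the 6 basal libraries (not in first basal 2) and Ifitm1 in the 3 Merkel libraries.

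Upstream sequences of 6 of these genes are given because their expression follows the different patterns described below: Irf1 low in Merkel cells against both basal sets, B2m, Bst2 and Isg15 highest in the first basal libraries, and the neighbouring genes Ifitm1 and Ifitm3 with opposite changes. Each is the 150 bases before the RefSeq transcription start (build GRCm38.p6), 5′ to 3′ on the strand of the gene (for Irf1, the first of its 2 RefSeq starts).
Irf1 (chr11:53769864-53770013, plus strand): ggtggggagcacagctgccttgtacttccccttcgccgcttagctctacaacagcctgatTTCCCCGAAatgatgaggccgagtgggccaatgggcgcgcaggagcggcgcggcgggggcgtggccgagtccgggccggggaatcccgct
B2m (chr2:122147537-122147686, plus strand): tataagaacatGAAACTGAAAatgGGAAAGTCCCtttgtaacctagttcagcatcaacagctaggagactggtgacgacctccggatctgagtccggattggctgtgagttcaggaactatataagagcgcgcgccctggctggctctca
Bst2 (chr8:71537473-71537622, minus strand): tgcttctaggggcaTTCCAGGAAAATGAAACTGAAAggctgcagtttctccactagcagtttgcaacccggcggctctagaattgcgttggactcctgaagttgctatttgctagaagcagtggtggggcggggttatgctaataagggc
Isg15 (chr4:156200819-156200968, minus strand): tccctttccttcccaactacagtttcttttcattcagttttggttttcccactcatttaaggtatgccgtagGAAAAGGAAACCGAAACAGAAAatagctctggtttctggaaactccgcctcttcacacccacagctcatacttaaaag
Ifitm1 (chr7:140967926-140968075, plus strand): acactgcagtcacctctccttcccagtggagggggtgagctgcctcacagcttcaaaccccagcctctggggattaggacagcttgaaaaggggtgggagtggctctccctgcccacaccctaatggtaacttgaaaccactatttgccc
Ifitm3 (chr7:141010745-141010894, minus strand): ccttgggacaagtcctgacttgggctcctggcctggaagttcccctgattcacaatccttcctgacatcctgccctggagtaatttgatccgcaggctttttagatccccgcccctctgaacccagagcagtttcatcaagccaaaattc
Capitals mark matches on either strand to 3 motifs: the interferon-stimulated response element, searched as a pair of GAAA parted by any 2 bases, the gamma-activated site of STAT proteins, searched as TTCNNNGAA, and a site of NF-kappaB, searched as GGG and TTTCC parted by any 2 bases. Irf1 held 1 gamma-activated match, from 90 to 82 bases before the start. B2m held 1 response element next to 1 NF-kappaB match. Bst2 held 2 response elements that overlap each other and a gamma-activated match. Isg15 held 3 overlapping response elements, 78 to 57 bases before the start. The Ifitm1 and Ifitm3 windows hold no match to these letters. The Ifitm1 window lies inside the span of the gene given below, so bases before the start of that span were not searched. The Ifitm3 window overlaps the first bases of its gene. RefSeq windows were found for 35 of the 40 genes. In the 250 bases before the start, 11 of these 35 (31.4%) held the response element, 8 (22.9%) the gamma-activated site and 3 (8.57%) the NF-kappaB site. Of all 32851 promoter windows, 2.98%, 7.02% and 1.41% did. The first shares are per gene and the latter per window. A gene with 2 windows, such as Irf1, Irf8 or Ifit2, was counted when either window held a match. A match is a stretch of letters and not evidence of binding.

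Among the transcription factors, Irf1, an activator of interferon and MHC class I genes, was low in Merkel cells against both basal sets. Irf1 (chromosome 11, 53770014 to 53778374, mm10) was at 27.0, 11.6 and 14.6 TPM in Merkel replicates 1, 2 and 3. It was at 60.3, 35.4 and 76.3 TPM in the first and at 78.1, 90.3 and 79.9 TPM in the second basal libraries. The groups did not overlap, and each second basal library was above each first one. Its log2 fold change was -1.66 ± 0.31 (SE) against the first (limma adjusted p = 0.0021) and -2.24 ± 0.31 against the second set (adjusted p = 0.00039). Between the basal sets the difference was 0.59 ± 0.31 (adjusted p = 0.352), in the direction opposite to the leukocyte markers. Irf1 overlaps the gene Gm17334 on the other strand, which was at a mean of 14.6 TPM.

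Irf3, the factor that starts interferon production after a virus is sensed, also separated Merkel from basal libraries, by less. It was at 24.6, 25.2 and 27.8 TPM in Merkel libraries, at 36.4, 43.4 and 43.7 TPM in first and at 35.4, 46.6 and 39.6 TPM in second basal libraries. No Merkel library reached a basal one. The log2 fold change was -0.65 ± 0.13 against the first (adjusted p = 0.0024) and -0.62 ± 0.13 against the second (adjusted p = 0.0032), under the fold limit for a call, and the basal sets differed by -0.03 with a 95% interval of -0.305 to 0.255. Irf9, the DNA-binding part of the complex that type I interferon activates, was at 7.15 ± 1.5 TPM (SD, n = 3) in Merkel, 14.6 ± 2.5 in first and 11.0 ± 0.93 in second basal libraries, with log2 fold changes of -0.94 (adjusted p = 0.0015) and -0.57 (adjusted p = 0.023) against the 2 basal sets. Its partner Stat2 was at 2.05 ± 0.06 TPM in Merkel cells against 3.93 ± 0.69 and 2.91 ± 0.66 TPM, and Irf2, a repressor of the same sites, at 4.03 ± 0.13 against 8.66 ± 2.67 and 6.05 ± 0.66 TPM. Neither was called.

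Stat3, which serves cytokines of the interleukin 6 family more than interferons, leaned the other way. It was at 80.6, 56.3 and 76.4 TPM in Merkel libraries and between 47.8 and 56.1 TPM in the 6 basal libraries. Merkel replicate 2 was only just above the highest basal library. The log2 fold change was 0.40 ± 0.14 against the first (adjusted p = 0.044) and 0.45 ± 0.14 against the second set (adjusted p = 0.029), under the fold limit.

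Irf5, Irf7 and Irf8 were lower in second than in first basal libraries, as the leukocyte markers were. Irf8, a factor of macrophages and dendritic cells, was at 12.6, 3.84 and 8.88 TPM in the first basal libraries, at 0.65, 1.13 and 0.52 TPM in the second and at 1.08, 0.45 and 1.60 TPM in Merkel libraries. The first basal group did not overlap the others, and within it the order of the sample numbers was that of Ptprc (56.9, 21.5 and 39.7 TPM). MHC class II genes had another order there, with sums of 670, 2060 and 1310 TPM. For Irf8 the second libraries were lower by a log2 fold change of -2.31 ± 0.35 (adjusted p = 0.0025), while Merkel cells against the second libraries gave 0.19 with a 95% interval of -0.60 to 0.97. Irf5, which acts downstream of Toll-like receptors, was at 16.2 ± 3.63 TPM in the first and 4.79 ± 0.09 TPM in the second basal libraries (log2 fold change -1.54 ± 0.20, adjusted p = 0.00093), with 4.72 ± 1.38 TPM in Merkel cells. Irf7, which amplifies the type I interferon response, was at 8.80 ± 3.05, 2.85 ± 0.57 and 2.27 ± 0.77 TPM in first basal, second basal and Merkel libraries (-1.31 ± 0.24, adjusted p = 0.0073). In the first basal libraries it was at 6.43, 7.73 and 12.2 TPM, an order unlike that of Ptprc. Irf8 shares its position and strand with Gm20388 (mean 3.25 TPM), which may share its reads. Irf5 and Irf7 overlap more abundant genes on the other strand (Tnpo3 at 31.7 and Phrf1 at 23.7 TPM), and the strand setting of the counting is not given in the sources used here. Irf4, a lymphocyte factor, did not pass 0.53 TPM in any library.

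Of the 4 receptor chains only the ligand-binding chain of the interferon gamma receptor was called. Ifngr1 was at 9.86, 7.01 and 9.27 TPM in Merkel libraries, at 54.1, 25.5 and 35.9 TPM in first and at 17.8, 14.7 and 13.4 TPM in second basal libraries. The 3 groups did not overlap. Merkel cells were lower against the first by a log2 fold change of -1.97 ± 0.24 (adjusted p = 0.00014). Against the second the value was -0.75 ± 0.24 (adjusted p = 0.031), under the fold limit. The second libraries were lower than the first by -1.23 ± 0.24 (adjusted p = 0.011). That call was lost without first basal replicate 1 (-0.95) or second basal replicate 3 (adjusted p = 0.054). Its partner Ifngr2 was at 15.0 ± 2.03 TPM in Merkel, 17.9 ± 4.03 in first and 14.1 ± 2.35 in second basal libraries, and the groups overlapped. Ifnar1 and Ifnar2 spread widely in the first basal libraries, at 17.5 to 36.1 and 18.8 to 53.8 TPM. In Merkel libraries they were at 11.6 to 17.5 and 12.7 to 21.7 TPM, and in the second basal libraries at 18.4 to 21.7 and 14.5 to 22.4 TPM. Against the second basal libraries their log2 fold changes in Merkel cells were -0.36 (95% interval -0.90 to 0.17) and -0.01 (-0.77 to 0.75). The interferons themselves were near 0: Ifna2, Ifna4 and Ifnl3 were listed at 0 in every library, and Ifnk, the interferon of keratinocytes, reached at most 1.33 TPM.

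**Figure D3:**
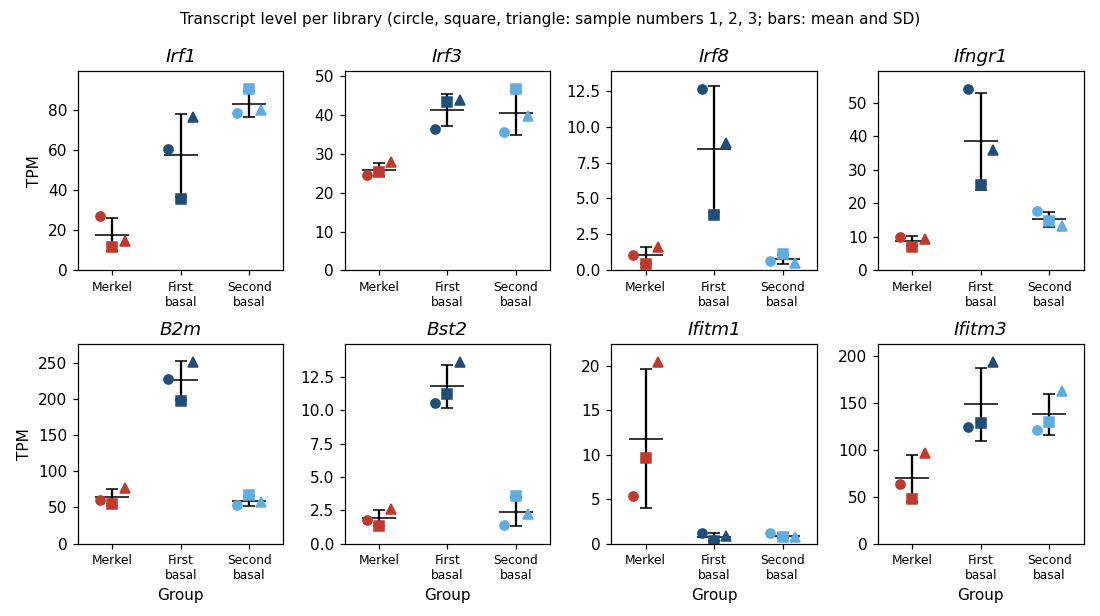
TPM per library of 8 genes, with the mean and SD of each group of 3. Irf1, Irf3 and Ifitm3 are lower in Merkel libraries than in all 6 basal libraries, Irf8, B2m and Bst2 are high in the first basal libraries only, and Ifitm1 is at 5.32 to 20.4 TPM in Merkel libraries.

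Antiviral effectors were mostly at low levels and highest in the first basal libraries. Bst2, which tethers budding viruses to the cell surface, was at 10.5, 11.2 and 13.6 TPM in the first basal libraries, at 1.38, 3.54 and 2.19 TPM in the second and at 1.79, 1.35 and 2.57 TPM in Merkel libraries. The first basal group lay apart and the other groups overlapped. The second libraries were lower than the first by a log2 fold change of -1.97 ± 0.24 (adjusted p = 0.00070), and Merkel cells differed from the second by -0.19 with a 95% interval of -0.72 to 0.35. Oas1a, which makes the signal for RNA decay by RNase L, was at 6.84 ± 1.39, 1.45 ± 0.85 and 1.04 ± 0.38 TPM in first basal, second basal and Merkel libraries (second against first -1.73 ± 0.27, adjusted p = 0.0028). Its call against all basal libraries (-1.08) was lost without Merkel replicate 1 (-0.98) or basal replicate 3 (-0.94). Ifit3, a member of a family that blocks translation of viral RNA, was at 4.54 ± 1.38, 0.563 ± 0.090 and 0.50 ± 0.25 TPM (-1.80 ± 0.19, adjusted p = 0.00040), and its near copy Ifit3b may share its reads. Ifit2 (-1.01) and Xaf1 (-1.09), a cofactor of cell death, were also lower in the second libraries, both just past the limit. The Xaf1 call was lost without any 1 of 5 of the basal libraries (all but first basal replicate 2), and that of Ifit2 without any 1 of 4.

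Isg15, a ubiquitin-like protein, kept a difference between Merkel and second basal libraries. It was at 0.58, 1.06 and 1.12 TPM in Merkel libraries, at 3.96, 4.73 and 7.96 TPM in first and at 1.25, 2.99 and 3.94 TPM in second basal libraries. The 3 groups did not overlap, though the lowest second basal library came close to the Merkel ones. The highest second basal library (3.94 TPM) nearly reached the lowest first one (3.96 TPM). Second against first basal libraries was not called (-0.84, limma adjusted p = 0.14). The log2 fold change of Merkel cells was -1.74 ± 0.30 against the first (adjusted p = 0.0013) and -0.90 ± 0.30 against the second libraries (adjusted p = 0.039), the latter under the fold limit. Mx1, a GTPase that blocks influenza virus, was at 0.303 ± 0.165 TPM in Merkel, 2.61 ± 1.04 in first and 1.04 ± 0.34 in second basal libraries, with -1.44 (adjusted p = 0.00066) and -0.64 (adjusted p = 0.043). Against all basal libraries Mx1 was called at -1.04, and fell short with median-ratio scaling (-0.98), and when basal replicate 3 (-0.89) or Merkel replicate 2 (-0.93) was left out. Oasl2 and the GTPase gene Gbp2 were lower in Merkel cells against the first libraries (-1.25 and -1.07) and at -0.33 and -0.18 against the second. Both fell short against the first without first basal replicate 3 (-0.99 and -0.83), and Gbp2 also without Merkel replicate 1 (-0.94). Usp18, which removes Isg15 from proteins and dampens interferon signalling, was at 0.75 ± 0.38, 2.40 ± 0.97 and 0.927 ± 0.300 TPM in Merkel, first and second basal libraries and was not called. Ifit1, Rsad2 and Mx2, too low to test, had means of 1.29, 1.06 and 1.1 TPM in the first basal libraries and of 0.42 TPM or less in the others.

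The 3 membrane proteins of the Ifitm family, which hinder the entry of viruses and lie close together on chromosome 7, had 3 different patterns. Ifitm1 (140967221 to 140969825) was at 5.32, 9.65 and 20.4 TPM in Merkel libraries. In basal libraries it was between 0.26 and 1.24 TPM, so the groups did not overlap, but the Merkel libraries spread widely. The log2 fold change was 2.72 ± 0.38 against the first (adjusted p = 0.00036) and 2.59 ± 0.38 against the second set (adjusted p = 0.00053). With a library left out it ranged from 2.13 to 3.14 in these comparisons. It was the only one of the 35 tested genes to be called higher in Merkel cells. Ifitm2 (140954837 to 140955987) was abundant everywhere, at 192 ± 46.9 TPM in Merkel, 189 ± 11.4 in first and 191 ± 14.4 in second basal libraries, and the 95% interval of its log2 fold change against the second libraries was -0.38 to 0.35.

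Ifitm3 (141009586 to 141010770) was at 63.7, 47.3 and 96.8 TPM in Merkel libraries, at 124, 128 and 193 TPM in first and at 121, 129 and 162 TPM in second basal libraries. All 3 Merkel libraries lay below all 6 basal libraries. The log2 fold change was -1.12 ± 0.26 against the first (adjusted p = 0.0062) and -1.03 ± 0.26 against the second (adjusted p = 0.0099). Between the basal sets it was -0.09 (95% interval -0.67 to 0.48). The call is near its limit: against all basal libraries (-1.07) it fell short without Merkel replicate 2 (-0.83) or basal replicate 3 (-0.91), against the first libraries without Merkel replicate 2 (-0.88) or first basal replicate 3 (-0.91), and against the second without Merkel replicate 1 (-0.998), Merkel replicate 2 (-0.79) or second basal replicate 3 (-0.90). With median-ratio scaling it was -0.88, -0.95 and -0.81 in these comparisons, short of the limit in each. Sample number 3 was the highest of its group for Ifitm3 in all 3 groups. The Ifitm genes are similar in sequence, and reads may have been divided among them.

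Most fibroblast markers were, like Ifitm1, higher in Merkel libraries. Of 6 tested, 5 were higher in Merkel libraries against either basal set, the exception being Dcn. Over all tested genes 7.16% were higher against the first and 6.13% against the second set. The sum of all 7 listed markers overlapped between Merkel and second basal libraries, at 175 to 269 and 102 to 253 TPM. Col3a1, a collagen of fibroblasts, was at 36.1, 29.2 and 24.4 TPM in Merkel replicates 1, 2 and 3, the reverse of the order that Ifitm1 had in these libraries, and at most at 1.37 TPM in basal libraries. The part of these cells in the Ifitm1 difference was not tested.

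All 3 immunoproteasome subunits were lower in second than in first basal libraries. Psmb8 was at 15.85, 17.98 and 14.29 TPM in the first basal libraries, at 2.60, 3.47 and 2.23 TPM in the second and at 2.41, 3.15 and 3.51 TPM in Merkel libraries. The first basal group lay apart from the others, which overlapped. The second libraries were lower than the first by a log2 fold change of -2.19 ± 0.16 (adjusted p = 0.00024), and Merkel cells against the second gave 0.10 with a 95% interval of -0.27 to 0.46. Psmb9 was at 7.02, 8.16 and 5.01 TPM in first, 1.11, 2.31 and 1.18 TPM in second basal and 0.58, 2.52 and 0.96 TPM in Merkel libraries (second against first -1.62 ± 0.30, adjusted p = 0.0078). In each group sample number 2 was the highest, as it was for MHC class II genes. Ptprc was instead lowest in number 2 of the first basal libraries. Psmb10 was at 18.4 ± 1.27, 8.69 ± 3.82 and 9 ± 1.53 TPM, and its call between basal sets (-1.07 ± 0.23, adjusted p = 0.018) was lost without first basal replicate 1 (adjusted p = 0.054), second basal replicate 1 (-0.93) or second basal replicate 3 (-0.90). The standard subunits that these replace, Psmb5, Psmb6 and Psmb7, were not called by limma in any of the 4 comparisons (0 of 3, with 2 at an unadjusted p under 0.05 in Merkel cells against the second basal libraries and 0 in the others). Their summed level was 329 to 377 TPM in first and 337 to 373 TPM in second basal libraries, and 375 to 467 TPM in Merkel libraries.

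Peptide loading genes differed less. Tap1, a chain of the peptide pump, was at 11.2, 6.79 and 9.95 TPM in Merkel libraries, at 16.95, 18.6 and 19.57 TPM in first and at 13.1, 12.6 and 11.3 TPM in second basal libraries. The 3 groups did not overlap, by a narrow margin between Merkel replicate 1 and second basal replicate 3. Its log2 fold changes in Merkel cells were -0.93 ± 0.16 against the first (adjusted p = 0.0013) and -0.39 ± 0.16 against the second set (adjusted p = 0.082). Tap1 and Psmb9 lie head to head on chromosome 17 and overlap at their first bases. Tap2, the other chain, was at 2.63 ± 0.78 TPM in Merkel, 4.67 ± 0.40 in first and 2.47 ± 0.80 in second basal libraries. Tapbp (tapasin, which holds MHC class I at the pump) was at 27.4 ± 3.01, 44.6 ± 1.30 and 35.4 ± 7.61 TPM. None of these 3 was called. Tapbp overlaps Zbtb22 on the same strand (mean 21.0 TPM), which may share its reads. Among 14 other tested genes of MHC class I and peptide loading, limma called only H2-M3 lower in Merkel cells against the first libraries. That is 1 of 14, too few to set apart from the 7.06% over all tested genes. Against the second libraries 0 were called lower (5% over all tested genes), with 5 at an unadjusted p under 0.05. H2-M3 was also the 1 called lower in second than in first basal libraries (3.64% over all tested genes), at -1.45 (limma adjusted p = 0.00070). H2-M3, which presents formylated peptides, was at most at 2.64 TPM. It reached 1 TPM only in the first basal libraries, so passing the filter already leans towards a difference. H2-T23, a nonclassical class I gene, was at 21.1 to 27.5 TPM in Merkel and 13.1 to 23.2 TPM in basal libraries, and was not called.

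Of the MHC class I chains, B2m and H2-K1 were lower in second than in first basal libraries. H2-D1 was not called in that comparison, but was called once the sample number was used as a block. All of these chains were lower in Merkel cells against the first basal libraries. B2m (chromosome 2, 122147686 to 122153083), the light chain, was at 228, 198 and 251 TPM in the first basal libraries. It was at 53.2, 67.3 and 56.9 TPM in the second basal libraries and at 59.7, 54.5 and 77.4 TPM in Merkel libraries. The first basal group lay far above the others, which overlapped. Merkel cells were lower than the first by a log2 fold change of -1.81 ± 0.15 (adjusted p = 1.3e-05), and the second libraries lower than the first by -1.91 ± 0.15 (adjusted p = 0.00024). Merkel cells against the second gave 0.10 with a 95% interval of -0.24 to 0.44. Averaged over the basal sets the value was -0.86 ± 0.15 (adjusted p = 0.0019).

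H2-K1, a heavy chain, was at 41.2, 43.7 and 44.5 TPM in the first basal libraries, at 15.7, 16.1 and 23.1 TPM in the second and at 19.7, 13.1 and 22.7 TPM in Merkel libraries. The first basal group lay apart, and the others overlapped. It was lower in second than in first basal libraries by -1.21 ± 0.20 (adjusted p = 0.0040), and its interval for Merkel cells against the second was -0.45 to 0.45. Merkel cells against the first gave -1.21, which became -0.996 (just short of the limit) without Merkel replicate 2. H2-D1, the other heavy chain, was at 61.4, 73.1 and 48.5 TPM in first, 31.8, 41.5 and 16.7 TPM in second basal and 27.5, 30.1 and 18.4 TPM in Merkel libraries. Sample number 2 was the highest and number 3 the lowest in each group. Merkel cells were lower than the first basal libraries by -1.25 ± 0.31 (limma adjusted p = 0.0087), and the interval against the second was -0.86 to 0.51. The second libraries differed from the first by -1.07 ± 0.31, not called at adjusted p = 0.062, and called with the sample number as a block (adjusted p = 0.0012). Nlrc5, the activator of MHC class I genes, was below the level for testing, at 0.98, 1.69 and 2.42 TPM in first basal, 0.32, 0.33 and 0.33 TPM in second basal and 0.19, 0.14 and 0.21 TPM in Merkel libraries. H2-K1, H2-D1 and other class I genes are near-identical in part, so that reads may have been divided among them.

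**Figure D4:**
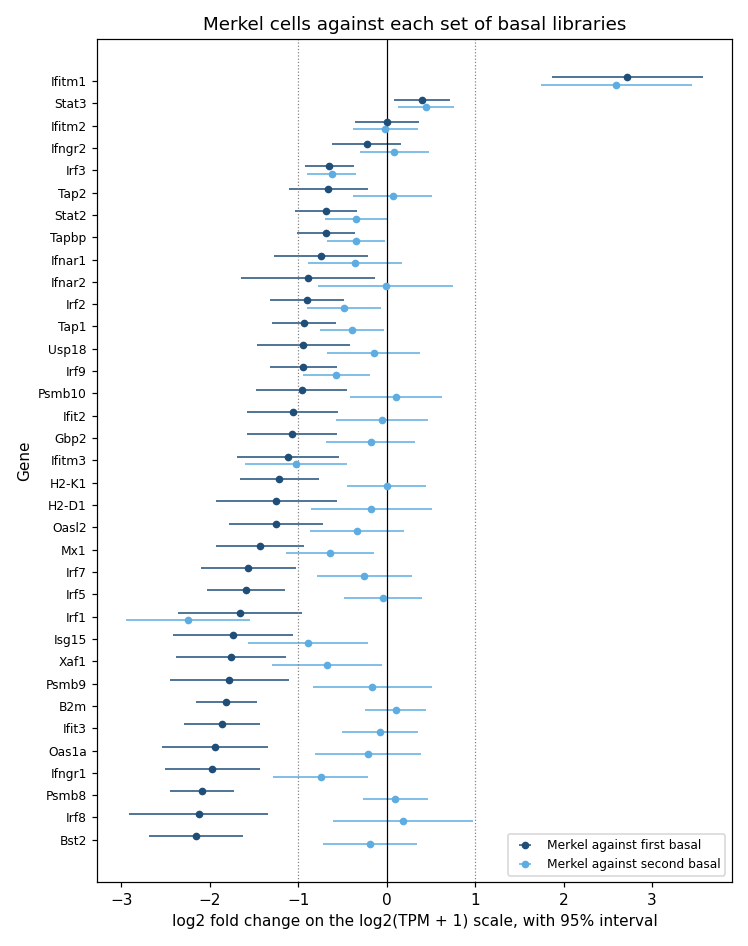
Log2 fold change, on the log2(TPM + 1) scale, of Merkel cells against the first (dark) and against the second (light) basal libraries for the 35 tested genes, with 95% intervals; dotted lines mark the fold limit of 1. B2m, Psmb8 and H2-K1 are lower against the first and close to 0 against the second, while Irf1 and Ifitm3 are lower against both and Ifitm1 is higher. The 2 comparisons share the Merkel libraries.

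The size of the difference between basal sets varied by gene. The mean TPM in the first libraries was 13.7 times that in the second for Ptprc, 12.1 times for Csf1r (the growth factor receptor of macrophages) and 6.56 times for Cd74 (the MHC class II chaperone). It was 11.0 times for Irf8, 5.80 times for Psmb8, 4.98 times for Bst2, 3.81 times for B2m, 2.35 times for H2-K1, 1.49 times for Tap1 and 1.02 times for Irf3. For Irf1 it was 0.693 times.

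Of 40 further interferon-stimulated genes 33 were tested, and 12 were lower in second than in first basal libraries (3.64% over all tested genes). All of the 12 but Rnf213 and Uba7 reached 1 TPM in all 3 libraries of a group only in the first basal group. For these genes, among them Sp100, Ifi44, Dhx58, Lgals3bp and Ifi204, passing the filter already leans towards a difference. Merkel cells were lower in 16 against the first (7.06% over all tested genes), in 7 against all basal libraries (5.16%) and in 1 against the second (5%), a share no higher than that over all tested genes. The 7 include Sp100 (log2 fold change -1.10 against all basal libraries), Rnf213 (-1.11), Ifi44 (-1.13), Dhx58 (-1.04), Lgals3bp (-1.13) and Ifi204 (-1.02). The 1 called against the second libraries was the chemokine Cxcl10, at -1.65 (adjusted p = 0.016). It was at 10.7, 1.89 and 5.14 TPM in Merkel and 14.8 to 22.3 TPM in second basal libraries. The 33 had a median log2 fold change of -0.78 between the basal sets (all tested genes 0.06) and -0.26 in Merkel cells against the second libraries (all tested genes -0.16).

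Of 20 tested sensors and signalling genes, 7 were lower in Merkel cells against the first (7.06% over all tested genes) and 2 against the second basal libraries (5%), the latter too few to set apart from that share. The 2 were Ikbke, a kinase that activates Irf3, and Socs3, a feedback inhibitor of cytokine receptors. Ikbke was at 2.79, 4.54 and 3.73 TPM in Merkel and 13.1 to 17.5 TPM in the 6 basal libraries (-1.72 against the second, adjusted p = 2.6e-05), with no overlap. Socs3 was at 64.2, 26.3 and 45.8 TPM in Merkel and 77.3 to 140 TPM in basal libraries (-1.16, adjusted p = 0.014). Against all basal libraries Tmem173 (STING, the sensor relay for cytosolic DNA, -1.08) and Dhx58 (a sensor of viral RNA) were also lower. Dhx58, Ifih1 and Ddx58 are counted both here and among the further interferon-stimulated genes, so these counts share genes.

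Irf1 and Socs3 are also induced within minutes by cell stress and cytokines, and lists of such genes were measured. Of 14 immediate early genes 5 were lower in Merkel cells against the second basal libraries (5% over all tested genes), with Fosb at -1.97 (adjusted p = 1.5e-05), Atf3 at -1.55, Fosl1 at -1.37, Zfp36 at -1.23 and Egr1 at -1.15. Egr2 went the other way, at 12.5 to 13.9 TPM in Merkel and 5.39 to 8.70 TPM in basal libraries (0.65, adjusted p = 0.0023, under the fold limit). The summed level of the 14 was 2870, 1420 and 2440 TPM in Merkel libraries 1, 2 and 3, the order that Irf1 and Socs3 also had in these libraries. It was 4030, 3450 and 4280 TPM in second basal libraries, lowest in number 2, where Irf1 and Socs3 were highest. In first basal libraries the sum was 4370, 2540 and 4640 TPM, the order that Irf1 and Socs3 had there too. Of 13 tested NF-kappaB response genes 9 were lower in Merkel cells against the first basal libraries (7.06% over all tested genes). Against all basal libraries 7 were lower (5.16%), and 4 were lower in second than in first basal libraries (3.64%). Against the second basal libraries 2 were lower (5%), too few to set apart from that share. By the adjusted p alone 7 were lower against the second (29.1%). The 2 called there were the adhesion molecule Icam1 (-1.55) and the inhibitor Tnfaip3 (-1.498). Nfkb1 itself was at 27.8 to 31.2 TPM in Merkel and 56.9 to 63.0 TPM in basal libraries (-0.98, adjusted p = 2.6e-05, under the fold limit). The part of these genes in the Irf1 difference was not tested.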

How the data were processed

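RNA of 9 libraries was read with a stranded total RNA kit, per the labels' protocols. The submitters' processing notes name Trimmomatic, STAR and RSEM and the build mm10. Their versions, the annotation and the strand setting were not given in the sources used here. Levels per gene, as the authors deposited them, are TPM in 1 table, each library scaled to the same total. Since TPM drops the depth, the reads behind each level are unknown, and no interval for counting error could be made. Of 49672 rows, 49326 matched a symbol in GENCODE M21 (GRCm38, the same build as mm10) without the version suffix.

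The basal libraries of a sample number were averaged on the log2(TPM + 1) scale for the comparison with Merkel cells (3 against 3 values). The other comparisons came from 1 fit of 3 groups of 3 libraries. Tests used limma 3.58.1 with a variance trend in R 4.3.3, and the fit was tested on simulated data. Fold changes on this scale understate the change of genes near 0. Tables and plots used Python 3.11.15, pandas 2.3.3 and matplotlib 3.10.9. Levels are mean TPM ± SD over 3 libraries. All 40 genes are named; genes of other lists are named where called or as markers. Members and lists were chosen with earlier results of these data known. Sequences and motif shares are from RefSeq windows of GRCm38.p6.

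Same-numbered libraries deviated together: the correlation of their deviations from group means over genes was 0.141 to 0.526 for all 9 pairs of same-numbered libraries in 2 groups, so the sample number was used as a replicate block in an alternative fit. Other alternatives were the pseudocount, the filter, 3 scalings, no variance trend and leaving out replicates.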

Additional observations from a re-analysis of the deposited data

How the results depend on the processing

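Over 2056 values of the 35 tested genes under the alternatives, 1880 kept their direction and side of the threshold, 66 gained a call, 47 lost one and 63 changed sign. All changes of sign were of values that were not called, and their cause was not tested. With median-ratio scaling, log2 fold changes became 0.115 (Ifngr2) and 0.189 (Ifitm2) for Merkel against basal libraries, 0.137 (Irf5), 0.197 (Ifnar2), 0.059 (Ifit2), 0.208 (Ifitm2), 0.208 (H2-K1) and 0.043 (H2-D1) against the second basal libraries, and -0.038 (Ifitm2) between the basal sets. With quantile normalization they became 0.095 (Ifngr2) and 0.091 (Ifitm2), then 0.177 (Ifnar2), 0.093 (Ifitm2), -0.021 (Tap2), 0.198 (H2-K1) and 0.027 (H2-D1), and -0.004 (Ifitm2). With mitochondrial and small RNA genes removed they became 0.018 (Ifngr2) and 0.085 (Ifitm2), then 0.024 (Irf5), 0.068 (Ifnar2), 0.071 (Ifitm2) and 0.08 (H2-K1).

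With 1 replicate left out, values that changed sign ranged as follows. Merkel against basal libraries: Ifitm2 -0.182 to 0.171, Ifngr2 -0.166 to 0.076. Against the first: Ifitm2 -0.174 to 0.179. Against the second: B2m -0.044 to 0.206, Bst2 -0.412 to 0.054, H2-D1 -0.533 to 0.1, H2-K1 -0.159 to 0.215, Ifit2 -0.197 to 0.090, Ifitm2 -0.189 to 0.164, Ifnar2 -0.158 to 0.209, Ifngr2 -0.005 to 0.211, Irf5 -0.234 to 0.078, Irf8 -0.009 to 0.412, Psmb10 -0.063 to 0.407, Psmb8 -0.005 to 0.229, Psmb9 -0.494 to 0.084, Tap2 -0.098 to 0.235, Usp18 -0.302 to 0.011. Between the basal sets: Ifitm1 -0.099 to 0.289, Ifitm2 -0.040 to 0.068, Ifitm3 -0.216 to 0.115, Irf3 -0.128 to 0.065, Stat3 -0.110 to 0.003.

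The 8 genes called lower in Merkel against basal libraries became 15 and 14 with pseudocounts of 0.1 and 0.5, 5 with a filter at 5 TPM (fewer genes tested) and 5 with median-ratio scaling, and ranged from 7 to 14 with 1 replicate left out. The 20 against the first became 12 at 5 TPM. The 2 against the second became 5 with a pseudocount of 0.1 and 1 with median-ratio scaling, quantile normalization or the removal of small RNA genes, and ranged from 1 to 3. Over all genes, those called lower in Merkel against basal libraries went from 743 to 1495, 1154 and 454 (pseudocounts 0.1 and 0.5, median-ratio scaling), against the first from 1015 to 1666 (0.1) and 640 (5 TPM), against the second from 720 to 1363, 1085 and 384, and between the basal sets from 523 to 270 (5 TPM). Those called higher went from 939 to 488, 1030 to 527 and 882 to 450 at 5 TPM, and between the basal sets from 100 to 226, 153 and 158 (pseudocounts 0.1 and 0.5, small RNA genes removed).

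With the replicate block the counts of genes called lower were 8, 20, 2 and 15, where H2-D1 between the basal sets was the change (log2 fold change -1.07, limma adjusted p = 0.0012). The block changed no other call among the 35 genes. TPM holds no depth, so the precision of values near 1 TPM is unknown.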
